A study of Arabidopsis thaliana with 8 samples.

Results

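The transcripts described here come from 9 genes of the chloroplast genome of Arabidopsis thaliana. Of these, 5 encode subunits of photosystem I (psaA, psaB, psaC, psaI and psaJ) and 4 encode subunits of the cytochrome b6f complex (petA, petB, petD and petG). They were taken as the genes with these names on the plastid genome to which the annotation of the array platform assigns a probe set of their own. Each had 1 probe set, so 9 probe sets stand for 9 genes, out of 69 plastid genes and 14756 probe sets tested. Their locus tags are ArthCp022 (psaA), ArthCp021 (psaB), ArthCp075 (psaC), ArthCp032 (psaI), ArthCp042 (psaJ), ArthCp035 (petA), ArthCp053 (petB), ArthCp054 (petD) and ArthCp041 (petG). The 2 cytochrome b6f genes petL and petN also have probe sets of their own and are described here only as neighbours.

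Col-0 plants on soil were moved to 4 °C, and their above-ground parts were harvested after 1 h, 24 h or 7 d. Control plants (0 h) were harvested from the growth conditions, which the labels give as 22 °C and continuous fluorescent light of 100 µmol m⁻² s⁻¹. Each of the 4 times had 2 ATH1 arrays, 8 in all, made from total RNA. The labels name no transgene or mutation and give 4 d of stratification, 10 d at 22 °C and an age of 18 days at every time. For the cold plants the treatment text gives dimmer continuous light of about 25 µmol m⁻² s⁻¹, though another label keeps 100, so cold and dimmer light cannot be told apart, nor can time in the cold and plant age. Nothing in the labels says whether the 2 arrays of a time came from separate plantings, so p-values measure only the spread between these arrays.

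Photosystem I takes electrons from plastocyanin, raises their energy with absorbed light and passes them to ferredoxin. The cytochrome b6f complex lies before it in the chain: it oxidises plastoquinol, reduces plastocyanin and moves protons into the thylakoid lumen. In both complexes some subunits are encoded in the plastid and others in the nucleus. Plastid genes are mostly transcribed in long units that carry several genes and are then cut, spliced and trimmed, and the stability of the processed RNA sets much of its level. An array signal does not separate the processed RNA from its precursors. In a bulk sample, fewer plastids or genome copies and less RNA per plastid cannot be told apart.

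Signals are MAS5 intensities on a linear scale. All 9 probe sets lay at or above the 40th percentile of their array on each of the 8 arrays, so all 9 passed the filter on low signals. Because probe sets differ in brightness, signals are compared between arrays for 1 gene and never between genes. A log2 change is the difference of log2(signal + 6.07) between times, given with its standard error (SE) from a limma fit over all 8 arrays. To pass, a gene needed a p under 0.05 after Benjamini-Hochberg adjustment over all 14756 probe sets. Median signals of the arrays ranged from 32.8 to 37.8, and replicate arrays correlated with r from 0.964 to 0.975 over probe sets, which are not independent replicates. The tissue could be checked on few markers: of 11 green tissue genes only RCA (Rubisco activase) had a tested probe set naming it, at signals of 3404 to 5935. Of the root markers PYK10, a beta-glucosidase, was tested, at 15.6 and 18.9 after 7 d and 85.3 to 158 on the other arrays. The root peroxidase gene PRX72 stayed below the filter, and no flower or seed marker was named by a probe set.

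Across the 4 times, the mean signals of the photosystem I transcripts were below the control in the cold with 1 exception, psaJ at 24 h. Only psaA at 24 h, psaC at 24 h and 7 d and psaJ at 7 d passed as lower. Of the 60 other plastid genes, 50, 51 and 49 also had negative log2 changes at 1 h, 24 h and 7 d. Over all tested probe sets it was 57.8%, 58.4% and 50.1%. Of the 4 cytochrome b6f transcripts, petA, petD and petG were below the control at 24 h and petB was not, and petG alone passed. The neighbours petL and petN were below it too. The test of any difference between the 4 times passed for 2 of the 9 genes, psaC (adjusted p = 0.028) and psaJ (adjusted p = 0.00404). That is 22.2% of the genes, against 29.9% of all tested probe sets and 28 of the 60 other plastid genes. The order of these shares depends on the fit: 4 of the 9 (44.4%) and 6029 probe sets (40.9%) passed with the replicate number as a block, and 33.3% and 28.8% with quantile normalization. In the plot of signals by time, psaC lies lower from 1 h on, while psaJ and petB are highest at 24 h, when petA, petD and petG are at their lowest.

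**Figure D1:**
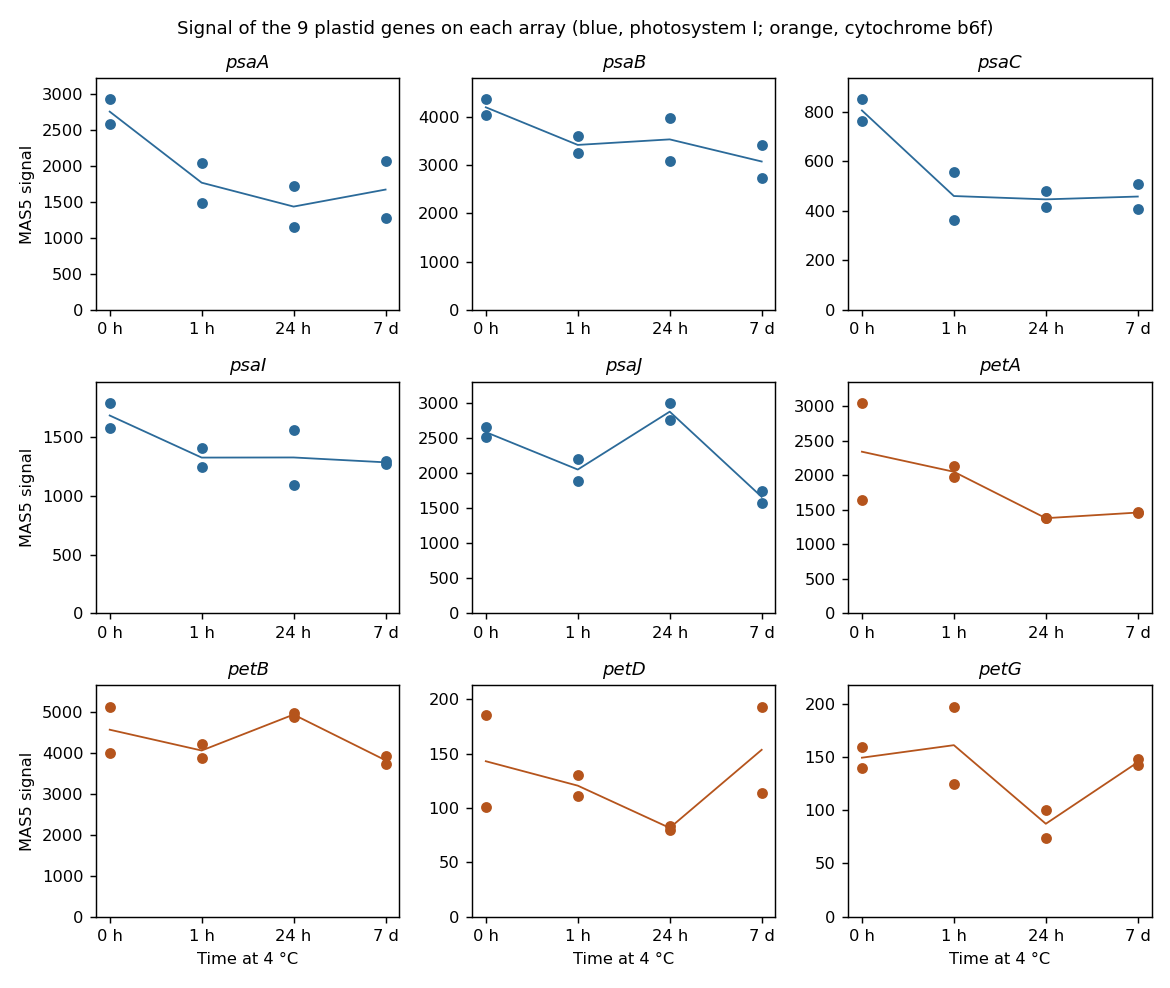
MAS5 signal (y axis, linear, from 0) of each of the 9 genes on each array at 0 h, 1 h, 24 h and 7 d at 4 °C (x axis). Points are single arrays, 2 per time, and lines join the means; for psaC the cold arrays lie at 364 to 556 and the control arrays at 762 and 851.

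The psaC transcript encodes the subunit that holds the terminal iron-sulfur clusters of photosystem I and hands electrons to ferredoxin. Its signal was 762 and 851 on the control arrays, 556 and 364 at 1 h, 478 and 414 at 24 h, and 409 and 507 at 7 d. All 6 cold arrays lay below both control arrays, and the 3 cold times overlapped one another. The log2 change was -0.83 ± 0.20 at 1 h (adjusted p = 0.186), -0.85 ± 0.20 at 24 h (adjusted p = 0.0168) and -0.81 ± 0.20 at 7 d (adjusted p = 0.0302). The psaC transcript thus fell at 24 h and 7 d, to 0.557 and 0.569 of the control, and its 1 h change was as large without passing. No further change passed after the first hour, with 24 h against 1 h at -0.01 ± 0.20 (95% interval -0.48 to 0.45) and 7 d against 24 h at 0.03 ± 0.20 (-0.43 to 0.49). Each of these calls rests on few arrays. The 24 h call ended without either control array or without 24 h replicate 2 (adjusted p = 0.0539 to 0.102). That at 7 d ended without any 1 of the control and 7 d arrays (adjusted p = 0.0503 to 0.133) and without the variance trend (adjusted p = 0.0586).

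The genes psaA and psaB encode the 2 large reaction centre proteins, which bind P700 and most of the chlorophyll of the core. The psaA signal was 2584 and 2922 on the control arrays, 2041 and 1490 at 1 h, 1716 and 1151 at 24 h, and 1276 and 2064 at 7 d. Again all 6 cold arrays lay below both control arrays. The psaA transcript fell at 24 h, by 0.96 ± 0.26 on the log2 scale (adjusted p = 0.0263), to 0.513 of the control. It stood at -0.65 ± 0.26 at 1 h (adjusted p = 0.658) and -0.76 ± 0.26 at 7 d (adjusted p = 0.0845). The 24 h call ended without either control array or without 24 h replicate 2 (adjusted p = 0.0746, 0.114 and 0.167), and it sat at the threshold with no filter (0.0506), with median centring (0.0511) and without the variance trend (0.0514). Without 7 d replicate 2 the 7 d change was -1.10 and passed (adjusted p = 0.0416).

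For psaB the signal was 4367 and 4042 on the control arrays, 3599 and 3247 at 1 h, 3982 and 3094 at 24 h, and 2726 and 3431 at 7 d. The cold arrays were below both control arrays here too, but by less. The log2 change was -0.30 ± 0.15 at 1 h, -0.26 ± 0.15 at 24 h and -0.46 ± 0.15 at 7 d, with adjusted p of 0.824, 0.233 and 0.0723. At 24 h the 95% interval was -0.60 to 0.08. The 7 d change passed with the replicate number as a block (adjusted p = 0.0496). Within each array, the log2 ratio of psaA to psaB, set to a mean of 0 on the control arrays, was -0.60 and -0.81 at 24 h, against -0.14 and 0.14 in the control. At 1 h it was -0.20 and -0.51, also below both control arrays. At 7 d it was -0.48 and -0.12, which reaches the control values. The ratios of this pair and of 2 others below were chosen after the values were seen and are given with no test.

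The small membrane subunits encoded by psaI and psaJ sit at the rim of photosystem I, PsaI near the docking side of the light-harvesting complex II and PsaJ near PsaF, which helps plastocyanin to bind. The psaI signal was 1578 and 1791 on the control arrays, 1405 and 1247 at 1 h, 1562 and 1092 at 24 h, and 1274 and 1297 at 7 d. It was below both control arrays at each cold time, but no comparison passed. The log2 change was -0.34, -0.36 and -0.39 at 1 h, 24 h and 7 d, each with an SE of 0.17 and adjusted p from 0.138 to 0.798. Without 24 h replicate 1 the 24 h change was -0.62 (adjusted p = 0.0297).

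The psaJ transcript had the lowest p of the 9 over the 4 times. Its signal was 2523 and 2656 on the control arrays, 2212 and 1897 at 1 h, 3006 and 2758 at 24 h, and 1750 and 1578 at 7 d. No 2 times overlapped, and in order from the highest they were 24 h, control, 1 h and 7 d. At 7 d it had fallen to 0.643 of the control, a log2 change of -0.64 ± 0.11 (adjusted p = 0.00816). Between 1 h and 24 h it rose by 0.49 ± 0.11 (adjusted p = 0.0138), and between 24 h and 7 d it fell by 0.79 ± 0.11 (adjusted p = 0.00674). Against control it stood at -0.34 ± 0.11 at 1 h (adjusted p = 0.491) and 0.15 ± 0.11 at 24 h (adjusted p = 0.349; 95% interval -0.10 to 0.41). With quantile normalization the 24 h value against control changed sign (-0.02), and the rise from 1 h no longer passed (0.22, adjusted p = 0.179). That rise also ended without 1 h replicate 2 or 24 h replicate 1 (adjusted p = 0.0877 and 0.0878). The fall after 24 h ended without 24 h replicate 1 (adjusted p = 0.0554) and that at 7 d without 7 d replicate 2 (adjusted p = 0.0528), while both kept their call under the other 15 alternatives.

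Among the 4 cytochrome b6f genes described (petL and petN stand below as neighbours), petG gave the 1 transcript that passed against control. It encodes a small hydrophobic subunit that the complex needs for its stability. The petG signal was 159 and 139 on the control arrays, 197 and 125 at 1 h, 100 and 74.0 at 24 h, and 148 and 142 at 7 d. Only at 24 h did its arrays lie apart from those of the other 3 times, which overlapped. It fell at 24 h by 0.75 ± 0.22 on the log2 scale (adjusted p = 0.0393), to 0.596 of the control, and by 0.82 ± 0.22 relative to 1 h (adjusted p = 0.0278). At 7 d it stood at -0.04 ± 0.22 against control (adjusted p = 0.93; 95% interval -0.55 to 0.47), and 7 d against 24 h was 0.71 ± 0.22 (adjusted p = 0.0835). That last change passed with the replicate number as a block (adjusted p = 0.0191). The fall from control ended in 7 of 16 alternatives: without either control array (adjusted p = 0.169 and 0.0889) or 24 h replicate 2 (0.216), with no filter (0.0617), with median centring (0.0768), with quantile normalization (0.0604) and without the variance trend (0.0594). The fall from 1 h ended without 1 h replicate 1 (adjusted p = 0.169) or 24 h replicate 2 (0.164).

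The petA gene encodes cytochrome f, which reduces plastocyanin. Its signal was 3043 and 1633 on the control arrays, 1967 and 2128 at 1 h, 1377 and 1375 at 24 h, and 1462 and 1453 at 7 d. The 4 arrays of 24 h and 7 d lay below the other 4 in a narrow band, but the control arrays lay far apart, at a mean of 2338 ± 997 (SD, n = 2). The log2 change was -0.69 ± 0.23 at 24 h (adjusted p = 0.0576) and -0.61 ± 0.23 at 7 d (adjusted p = 0.113). Here 1 array decides the calls: without control replicate 2 the change was -1.14 at 24 h (adjusted p = 0.00128) and -1.06 at 7 d (adjusted p = 0.00301), and without control replicate 1 it was -0.25 and -0.16. With the replicate block the 24 h change passed (adjusted p = 0.0312), as it did with quantile normalization (adjusted p = 0.0279).

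The genes petB and petD encode cytochrome b6 and subunit IV, the pair that forms the quinone-binding core of the complex. The petB signal was 5132 and 4000 on the control arrays, 4229 and 3887 at 1 h, 4984 and 4887 at 24 h, and 3725 and 3914 at 7 d. The 24 h arrays lay within the range of the control and above the arrays of 1 h and 7 d. No petB comparison passed, with log2 changes of -0.16, 0.12 and -0.25 (SE 0.12) at 1 h, 24 h and 7 d against control, each of which changed sign with quantile normalization. The change between 24 h and 7 d, -0.37 ± 0.12 (adjusted p = 0.0916), passed in 5 of 16 alternatives, the replicate block among them (adjusted p = 0.0488), and changed sign with quantile normalization (0.11). The petD signal was 101 and 185 on the control arrays, 111 and 131 at 1 h, 83.6 and 79.8 at 24 h, and 193 and 114 at 7 d. The 24 h arrays were the lowest of the 8, at -0.70 ± 0.30 against control (adjusted p = 0.117). That value was -1.12 and passed without control replicate 1 (adjusted p = 0.0427), and it was -0.28 without control replicate 2 (adjusted p = 0.546). Against control, 7 d stood at 0.11 ± 0.30 (adjusted p = 0.837). The SE of petD was the largest of the 9, and its 95% interval at 24 h ran from -1.39 to -0.02.

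**Figure D2:**
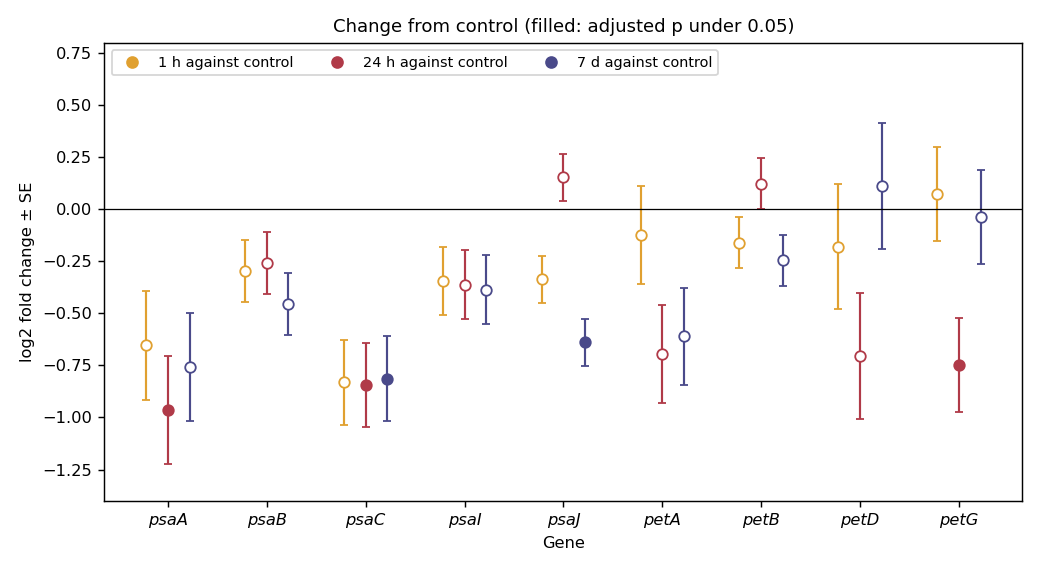
Log2 fold change from control (y axis) of the 9 genes (x axis) at 1 h, 24 h and 7 d; points are estimates from the limma fit, bars are ± SE, and filled points have an adjusted p under 0.05. The filled points are psaA, psaC and petG at 24 h and psaC and psaJ at 7 d.

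Counted together, 0 of the 9 genes passed at 1 h in limma, where 0.0407% of all tested probe sets passed as lower and 0.867% as higher. At an unadjusted p under 0.05 they were 3 of 9, psaA, psaC and psaJ, all of them lower, against 6.7% of all probe sets in either direction. Both 1 h arrays lay below both control arrays for all 5 photosystem I genes and for none of the 4 cytochrome b6f genes. The cytochrome b6f genes petL and petN, read here as neighbours, did lie below. Their 1 h signals were 271 and 222 (petL, control 316 and 499) and 92.3 and 74.6 (petN, control 124 and 125). Over all probe sets 21.9% lay below in this way, as did 30 of the 60 other plastid genes. At 24 h, 7 of the 9 lay below both control arrays, against 39.4% of all probe sets and 36 of the 60 other plastid genes. At 7 d it was again 7, against 29.9% and 37 of the 60. At 24 h, 3 of the 9 passed as lower (33.3%), against 15.1% of all probe sets and 17 of the 60 other plastid genes (28.3%), and 0 passed as higher, against 11.1%. At 7 d, 2 of the 9 passed as lower (22.2%), against 8.54% of all probe sets and 13 of the 60 others (21.7%), and 0 as higher, against 7.33%. At 24 h and 7 d the lower shares of the 9 genes were thus above those of all probe sets and near those of the other plastid genes, and neither difference was tested. At 24 h this depended on the fit. With median centring 1 of the 9 (11.1%) was lower, close to the 9.94% of all probe sets. Without the variance trend it was 1 of the 9, against 13.9%. Fewer of the 9 were lower at 24 h without either 1 of the control arrays or without 24 h replicate 2, and fewer of all probe sets too. Those fits leave 1 array in a group, so their shares are not compared here. From 1 h to 24 h, psaJ alone passed as higher, against 11.6% of all probe sets, and petG alone as lower, against 14.9%. From 24 h to 7 d, psaJ alone passed as lower, against 4.22%, and 0 as higher, against 4.32%. At an unadjusted p under 0.05 in limma they were 4 of 9, 2 in each direction, against 27.0% of all probe sets in either direction.

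The median log2 change of the 9 genes was -0.30 at 1 h, -0.69 at 24 h and -0.46 at 7 d, where the median of all tested probe sets was -0.04, -0.10 and 0.00. Centring each array on its median moved the 24 h change of all probe sets up by 0.14. Relative to all probe sets, the 9 genes stood at -0.59 at 24 h. The 24 h median was -0.31 without control replicate 2. By complex, the 5 photosystem I genes had medians of -0.34, -0.36 and -0.64 at 1 h, 24 h and 7 d, and the 4 cytochrome b6f genes -0.14, -0.70 and -0.14. The 60 other plastid genes had -0.24, -0.48 and -0.36. Array by array, the median change of the 9 genes from the control mean minus that of the other plastid genes was -0.07 and -0.04 at 1 h, -0.23 and -0.07 at 24 h, and -0.10 and -0.09 at 7 d. The other plastid genes themselves had median changes of -0.63 to -0.16 on the 6 cold arrays.

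By group, the 15 genes of photosystem II (psb) had medians of -0.23, -0.19 and -0.79 at 1 h, 24 h and 7 d, with 8 of 15 lower at 7 d. The 10 tested genes of the NDH complex (ndh), which feeds electrons into the plastoquinone pool, had -0.22, -0.50 and -0.23. The 4 genes of the plastid RNA polymerase (rpo) had -0.36, -0.85 and 0.27, and 3 of the 4 passed as higher at 7 d against 24 h. The 6 atp genes, for the ATP synthase, had -0.50, -0.52 and -0.60, and the 15 ribosomal protein genes (rps and rpl) -0.08, -0.36 and -0.16. At 24 h the cytochrome b6f and rpo medians were the lowest of the groups, and at 7 d those of psb and photosystem I were. These are descriptions of small groups, and differences between groups were not tested.

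**Figure D3:**
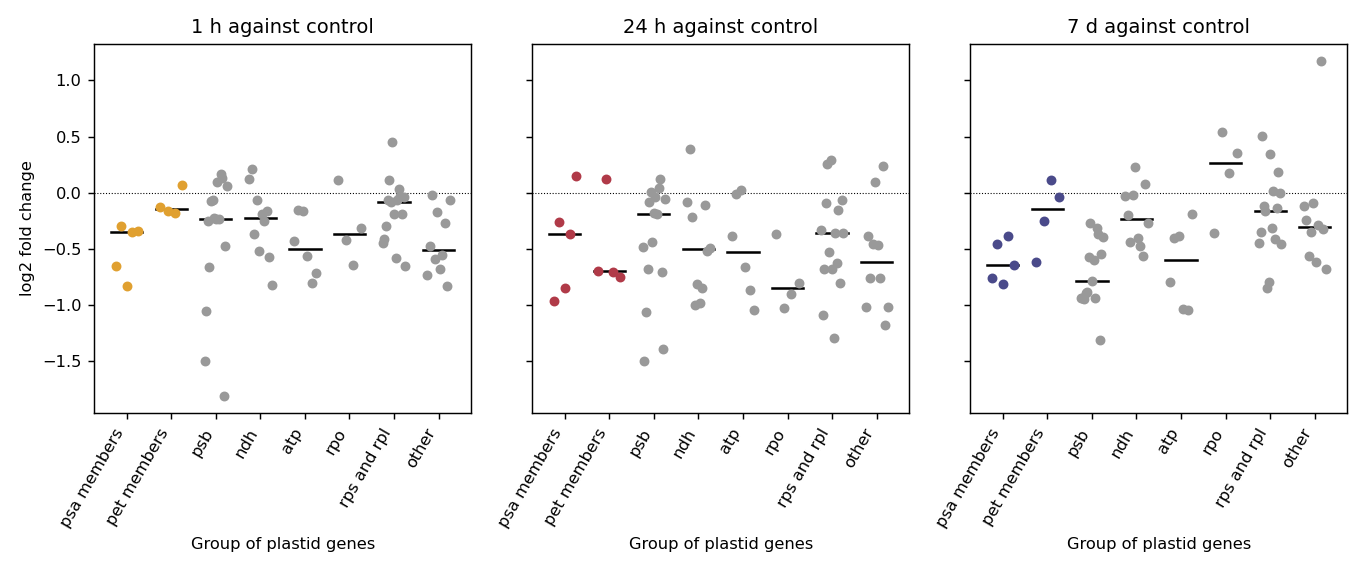
Log2 fold change from control (y axis) of the 69 tested plastid genes by group (x axis), with 1 panel each for 1 h, 24 h and 7 d; points are genes and bars are group medians. The coloured points are the 5 photosystem I and 4 cytochrome b6f genes, whose medians at 7 d were -0.64 and -0.14.

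The neighbours of the 9 genes on the plastid chromosome were read beside them, because genes of 1 unit share precursor RNA. The gene order covers only loci with ArthCp tags and was taken from start positions, without strand. Neighbouring places in it thus do not show that genes share a precursor. The petG and psaJ genes are next to each other in this order, after petL and before rpl33 and rps18, which encode ribosomal proteins. At 24 h petG fell while psaJ stood at 0.15. The log2 ratio of psaJ to petG was 0.76 and 1.04 at 24 h, against -0.13 and 0.13 in control plants. It was -0.62 and -0.20 at 1 h, and -0.55 and -0.65 at 7 d. The other genes of that stretch were at -0.47 ± 0.20 (petL), -0.52 ± 0.20 (rpl33) and -0.63 ± 0.17 (rps18) at 24 h, of which rps18 passed (adjusted p = 0.029). At 7 d rpl33 passed with psaJ, at -0.85 ± 0.20 (adjusted p = 0.0242).

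The petB and petD genes end the unit that begins with psbB, the gene of a photosystem II core antenna protein. Along it, the 24 h change was -1.49 ± 0.21 for psbB (adjusted p = 0.00149), -1.39 ± 0.18 for psbT (adjusted p = 0.00121), -0.44 ± 0.15 for psbH (adjusted p = 0.0591), 0.12 for petB and -0.70 for petD. The 2 genes at the head of the unit passed and the 3 at its end did not. The ratio of petB to petD was 0.81 and 0.84 at 24 h, but the control arrays themselves lay at 0.60 and -0.60, so the groups are less far apart than these arrays. By start position, with strand not read, the psbN gene lies between psbT and psbH. It passed as lower at 1 h, at -1.81 ± 0.25 (adjusted p = 0.0115), and at 7 d, at -1.31 ± 0.25 (adjusted p = 0.0109). The psbN change at 24 h was -0.70 ± 0.25 (adjusted p = 0.0678). At 7 d psbB passed as well, at -0.93 ± 0.21 (adjusted p = 0.0195), beside petB at -0.25 and petD at 0.11.

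The psaI and petA genes lie on either side of ycf4, which encodes an assembly factor of photosystem I, and cemA, for an envelope membrane protein, with accD before them for a subunit of acetyl-CoA carboxylase. At 24 h accD and ycf4 both fell by 1.02 ± 0.20 (adjusted p = 0.00788 and 0.00787) and cemA by 0.76 ± 0.14 (adjusted p = 0.00479). Among them psaI stood at -0.36 and petA at -0.69, neither passing. At 7 d cemA passed, at -0.56 ± 0.14 (adjusted p = 0.0279), next to petA at -0.61.

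Around psaA and psaB lie ycf3, for another photosystem I assembly factor, and rps14, for a ribosomal protein. The ycf3 transcript fell at 24 h by 1.17 ± 0.22 (adjusted p = 0.00631), beside psaA at -0.96, psaB at -0.26 and rps14 at -0.67 ± 0.49. At 7 d ycf3 stood at -0.32 ± 0.22 (adjusted p = 0.368), and psaA at -0.76.

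The psaC gene lies among ndh genes, between ndhD and ndhE. The ndhE and ndhG transcripts fell at 24 h, by 0.99 ± 0.20 and 0.98 ± 0.21 (adjusted p = 0.00843 and 0.0112), and ndhD stood at -0.21 ± 0.15. At 1 h and at 7 d, when psaC stood at -0.83 and -0.81, ndhE was at -0.07 and -0.02. The changes of the 2 adjacent genes were thus close at 24 h and apart at the other 2 times, a difference that was not tested. Further along, ndhI fell at 7 d by 0.56 ± 0.12 (adjusted p = 0.0194) and rps15 at 24 h by 1.29 ± 0.32 (adjusted p = 0.0181). Apart from these units, petN, another small cytochrome b6f subunit, fell at 24 h by 0.76 ± 0.19 (adjusted p = 0.0195), to signals of 61.1 and 82.0 against 124 and 125 in the control, beside petG at -0.75.

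**Figure D4:**
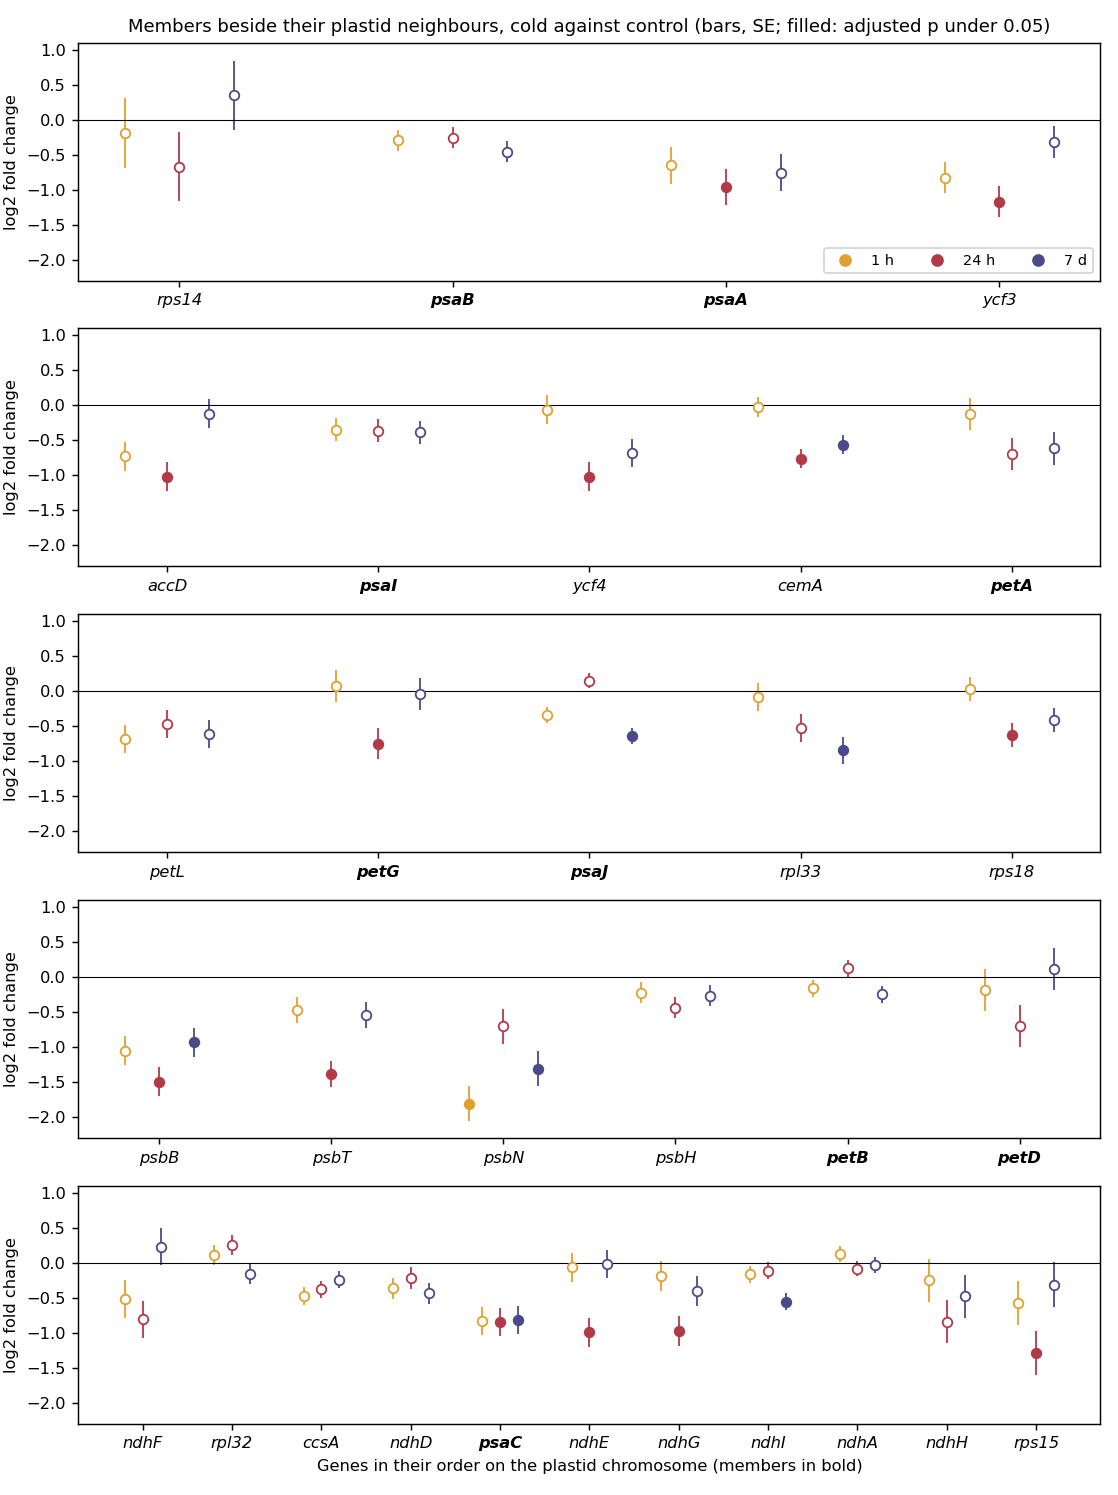
Log2 fold change from control (y axis) at 1 h, 24 h and 7 d for the 9 genes (bold) and their neighbours in their order on the plastid chromosome (x axis), 1 panel for each of 5 stretches; bars are SE and filled points have an adjusted p under 0.05. In the third panel petG and psaJ, side by side, stand at -0.75 and 0.15 at 24 h and at -0.04 and -0.64 at 7 d.

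Few nuclear genes of the 2 complexes were named by a tested probe set. Of 12 nuclear photosystem I genes listed, 2 were tested, PSAE-1 for a stromal subunit at the ferredoxin side and PSAN for a lumenal subunit at the plastocyanin side. Both fell at 7 d, by 0.96 ± 0.10 (adjusted p = 0.000814) and 0.56 ± 0.095 (adjusted p = 0.00669), and neither passed at 1 h or 24 h, where they stood at -0.12 to -0.22. Beside them at 7 d the 5 plastid-encoded photosystem I genes had a median of -0.64. No listed nuclear subunit of cytochrome b6f had a tested probe set naming it. Of 11 nuclear genes matched for cytochrome b6f and the electron carriers, the 1 tested was PGRL1B, which acts in cyclic electron flow around photosystem I. It fell at 24 h by 0.67 ± 0.19 (adjusted p = 0.0305) and at 7 d by 0.86 ± 0.19 (adjusted p = 0.0195). None of the 6 listed genes of light-harvesting complex I had a probe set naming it. Of the assembly and RNA factors, 4 were tested. HCF101, needed for the iron-sulfur clusters of photosystem I, stood at 0.12 ± 0.145 at 24 h and 0.20 ± 0.145 at 7 d. CCB3 and CCDA, needed for haem attachment in cytochrome b6f, stood at -0.38 ± 0.21 and -0.27 ± 0.15 at 24 h. The fourth, NdhL, is a subunit of the NDH complex and fell at 24 h by 0.59 ± 0.18 (adjusted p = 0.0437).

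Some technical and tissue measures also differed between times. For GAPDH, the 3'/5' ratio of the control signals stood at 1.46 on both 1 h arrays, with 1.24 and 1.26 for control plants, and at 1.17 to 1.36 at 24 h and 7 d. For ubiquitin it was 2.08 and 1.90 at 1 h, with 2.88 and 2.22 for control plants, and 2.13 to 2.64 at 24 h and 7 d. At 7 d RCA fell by 0.67 ± 0.10 (adjusted p = 0.00385) and PYK10, the root marker, stood at -2.66 ± 0.17 (adjusted p = 9.96e-05). The part of these in the values of the 9 genes was not tested. Nor do the sources used here say how plastid RNA, most of which carries no stable poly(A) tail, was primed for labelling.

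Over the 8 arrays, the log2 signals of the 5 photosystem I genes correlated with one another at r from 0.16 to 0.92 (10 pairs). The 4 pairs with psaJ lay at 0.16 to 0.56 and the 6 others at 0.79 to 0.92. The 4 cytochrome b6f genes correlated at r from -0.81 to 0.52 (6 pairs), the lowest being petB with petD. These are descriptions over 2 arrays at each of 4 times, which share 1 scaling per array. Of 8036 other probe sets that name 1 gene, the pattern most like the mean of the 9 genes was that of AT3G15550 (r = 0.96), followed by AT5G25560 (0.95), AT1G06320 (0.948), AT5G55790 (0.947) and AT5G07910 (0.943), all nuclear. For psaC alone it was AT5G25560 (r = 0.943) and for psaJ alone AT1G50020 (r = 0.949). These r were picked as the highest among 8036 over 8 arrays, and none was tested. Among themselves the 9 genes correlated at r from -0.81 to 0.92 (36 pairs, median 0.38), so their mean is not a course that all 9 share.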

How the data were processed

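Total RNA of 8 samples was measured on ATH1 arrays. The deposited values are signal intensities on a linear scale, made with MAS5 per the submitters' processing notes, whose version is not given in the sources used here. Every array has the same trimmed mean of 100 (2% off either end), and that scaling was kept. Precision is limited by having 2 arrays a time. Of 22810 probe sets, 64 controls were left out. A probe set was tested if 2 or more arrays held it at or over their own 40th percentile (14756: 8045 naming 1 gene, 288 several, 6423 none). A mean per time was fitted to log2(signal + 6.07), the pseudocount being the 20th percentile of the table, with limma 3.58.1 in R 4.3.3 (lmFit, eBayes with a trend, 4 residual degrees of freedom, two-sided). This scale understates changes of weak signals. The fit was tested on simulated data. Gene names came from the platform annotation, updated by gene ID through RefSeq's table for TAIR10.1, which also gave gene order. The genes, lists and alternatives were chosen with earlier results of these data known. Named are the 9 genes, their listed neighbours, up to 3 members per list that passed (with HCF101, CCB3 and CCDA, chosen after their values were seen) and the most correlated probe sets. Alternatives covered the pseudocount, the filter, the scaling, the variance trend, a replicate block, fits of 2 times alone and leaving out each array. Sequences were not analysed here.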

Additional observations from a re-analysis of the deposited data

How the results depend on the processing

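Each result was recomputed under 16 alternatives, except the tests of any time, which have no fit of 2 times alone and so had 15. Of the 8 calls among the 9 genes, 0 reversed and 8 ended when some 1 array was left out, so 2 arrays per time limit every call. Over all alternatives, 635 of the values for single genes kept direction and side of the threshold, 28 lost a call, 23 gained one and 34 changed sign, all from values that had not passed. The causes were not tested.

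With a pseudocount of 1, 3 probe sets were lower at 1 h (main 6). With no filter, 1 of the 9 genes was lower at 24 h (main 3), and 342 probe sets were higher at 7 d against 24 h (main 637). Median centring gave 1 gene lower at 24 h, 2 higher at 24 h against 1 h (main 1) and 2 lower at 7 d against 24 h (main 1). It left 1467 probe sets lower at 24 h (main 2235) and 2454 higher at 24 h against 1 h (main 1707). At 7 d against 24 h it left 396 higher and 1005 lower (main 637 and 622). The higher share of calls moved to 61.3% at 24 h (main 42.3%), 61.1% at 24 h against 1 h (main 43.6%) and 28.3% at 7 d against 24 h (main 50.6%). The genes' median turned to 0.12 at 24 h against 1 h (main -0.02) and -0.080 at 7 d against 24 h (main 0.03); psaC (0.12, then -0.080), psaI (0.12 in the first) and petA (-0.029 in the second) turned too. Quantile normalization gave 0 genes higher and 2 lower at 24 h against 1 h (main 1 and 1), beside 1872 and 1886 probe sets. It gave 403 probe sets higher at 7 d against 24 h. It turned petA (0.020) and petB (0.036) at 1 h, psaJ (-0.018) and petB (-0.0085) at 24 h, petB at 7 d (0.10), psaB (-0.22) and petB (-0.044) at 24 h against 1 h, and psaB (0.15), psaI (0.12) and petB (0.11) at 7 d against 24 h. Without the variance trend, 1 gene was lower at 24 h, 1 at 7 d (main 2) and 1 differed at any time (main 2). Over all probe sets the same counts were 2052, 940 and 3728. At 7 d against 24 h there were 409 higher and 402 lower probe sets. With the 2 times alone in the fit, 2 probe sets were lower at 1 h, 594 higher and 771 lower at 7 d (main 1082 and 1260) and 327 higher at 7 d against 24 h; 3 genes were lower at 24 h against 1 h and 2 at 7 d against 24 h.

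The groups share replicate numbers, but the labels do not say that a number marks a batch, and each comparison has 2 pairs, so the arrays were not treated as paired. Deviations of same-numbered arrays from their group means correlated at r from 0.164 to 0.363 over probe sets in the 6 pairs of times. With the replicate block, 215 probe sets were higher at 1 h (main 128), and 1388 higher and 1093 lower at 7 d against 24 h. Of the 9 genes, 1 was higher (main 0) and 2 were lower there, and 4 differed at any time, beside 6029 probe sets (main 4412).

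Leaving out 1 array at a time gave ranges as follows. At 1 h, 34 to 157 probe sets were higher and 0 to 5 lower. At 24 h, 896 to 1646 were higher and 1052 to 2329 lower, with 0 to 4 of the 9 genes lower and their median at -0.69 to -0.31. At 7 d, 365 to 915 were higher and 416 to 1076 lower, with 1 to 3 genes lower. At 24 h against 1 h, 914 to 1713 were higher and 994 to 2293 lower, with 0 to 2 genes in each direction and a median of -0.32 to 0.088. At 7 d against 24 h, 101 to 485 were higher and 135 to 594 lower, with 0 to 2 genes lower and a median of -0.12 to 0.13. At any time, 2543 to 3815 probe sets and 1 to 3 genes differed. Values of single genes that changed sign here ran as follows: at 1 h petA from -0.57 to 0.32, petB from -0.34 to 0.019, petD from -0.60 to 0.24 and petG from -0.24 to 0.39; at 24 h petB from -0.056 to 0.30; at 7 d petD from -0.31 to 0.53 and petG from -0.13 to 0.054. At 24 h against 1 h they were psaB from -0.14 to 0.22, psaC from -0.32 to 0.29 and psaI from -0.28 to 0.24. At 7 d against 24 h they were psaA from -0.14 to 0.55, psaC from -0.12 to 0.18 and psaI from -0.28 to 0.23.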
